A study of Mus musculus with 37 samples.

Results

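The olfactory bulbs of 3 dp/+ mice were compared with those of 3 +/+ mice, which makes 6 samples on 7 arrays out of 31 samples on 37 arrays in the whole series. The members were chosen by genotype and region alone: every bulb labelled as having 3 copies, or 2 copies, of the engineered segment. A dp/+ mouse is heterozygous for a duplication of the part of mouse chromosome 7 that corresponds to human 16p11.2, so it carries 3 copies, and a +/+ mouse is wild type with 2. The 2 df/+ mice are heterozygous for the deletion of the same segment and carry 1 copy. They entered the estimate of the spread, and their values are given for some genes and lists only. All 8 mice were males of 1 F1 hybrid background, C57BL/6N:129Sv, and no age is given in the labels. The cortex, cerebellum and brain stem of these mice were measured too and serve as the other regions below. No cortex of dp/+ mouse 3 was analysed here, so dp/+ values for cortex rest on 2 mice. The labels number the mice of a genotype as separate biological samples. Whether a bulb was pooled from both sides is not stated.

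Gain and loss of 16p11.2 are among the more frequent rearrangements found in people with autism and other developmental conditions. The segment holds genes for kinase signalling (Taok2, Mapk3), ubiquitin ligase adaptors (Kctd13), vesicle release (Doc2a), glycolysis (Aldoa) and membrane lipids (Cdipt, Gdpd3). An extra copy of a gene raises its messenger RNA in proportion where nothing else compensates. The olfactory bulb is the first relay of smell. Axons of olfactory sensory neurons end there in glomeruli on mitral and tufted cells, and granule and periglomerular interneurons, renewed through life by migrating neuroblasts, inhibit those cells.

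The bulb samples carried many of the listed markers of bulb tissue. Of 17 listed genes of granule cells and other bulb interneurons, 13 were highest in the bulb among the 4 regions of +/+ mice, as were 6 of 10 of mitral and tufted cells and 6 of 9 of migrating neuroblasts. Of 6 periglomerular genes only 2 were highest in the bulb, and 3 were higher in cortex than in the bulb. Values are log2 of the array signal, so that a difference of 1 is a doubling. On that scale the median SD between bulbs of 1 genotype was 0.13, against 0.10 for cerebella and 0.13 for brain stems. The bulb of +/+ mouse 1 stood apart, with a median correlation of 0.989 with the other bulbs over all genes, where the remaining bulbs had 0.993 to 0.996, and the bulb of dp/+ mouse 3 had the lowest of these. The 2 arrays of +/+ mouse 1 differed by a median of 0.09. Where leaving out either of these 2 bulbs moved a result that leads a paragraph, the value without it is given. A gene is called dim where its bulb level is at most 6.58, the level under which 95% of 1209 odorant, vomeronasal and trace amine receptor genes lie. By that rule 5912 of 19938 genes are dim, or 29.7%. In bulk tissue, fewer cells of a type and less RNA per cell cannot be told apart.

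The comparison first asked whether the duplicated genes were expressed at a higher level in dp/+ bulb. Of 33 listed interval genes 30 were measured, Mapk3 not among them, and 26 of these 30 were brighter than the dim limit. Their median difference between dp/+ and +/+ bulb was 0.25 on the log2 scale, beside 0.005 over all genes, and 26 of the 30 differences were positive. The median interval gene stood at 119.0% of its +/+ level, where strict proportion to copy number would give 150%, and single genes ranged from 91.3% to 155.7%. With limma and Benjamini-Hochberg adjustment over all genes, no interval gene passed an adjusted p of 0.05 in the fit of the 8 bulbs, beside 0.0251% of all genes called higher. At an unadjusted p under 0.05, 15 of the 30 were higher and none was lower, beside 6.48% of all genes higher. All 3 dp/+ bulbs lay above all 3 +/+ bulbs for 16 of the 30, beside 8.87% of all genes. Without dp/+ mouse 3 the unadjusted count was 15, and without +/+ mouse 1 it was 17. In the fit of all 31 samples, in which the 4 regions share 1 estimate of the spread, 8 interval genes were higher in dp/+ bulb past the threshold, beside 1.21% of all genes. These were Gdpd3, Tlcd3b, Hirip3, Taok2, Asphd1, Sez6l2, Cdipt and Tbc1d10b.

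Tbc1d10b, which encodes a GTPase-activating protein for Rab GTPases, measured 8.42, 9.07 and 9.0 in +/+ bulb and 9.49, 9.44 and 9.36 in dp/+ bulb. The genotypes did not overlap, and its difference was 0.60 ± 0.14 (SE), with an adjusted p of 0.138 in the bulbs alone and 0.00625 in the fit of all samples. Taok2, a kinase of the MAP kinase cascade that acts on the neuronal cytoskeleton, measured 9.73, 10.44 and 10.39 against 10.76, 10.75 and 10.80. The value of +/+ mouse 1 was the lowest of the 3 wild types by a wide margin, and the same mouse was lowest for Tbc1d10b, Sez6l2, Tlcd3b, Maz and Doc2a. When that mouse was left out the differences were 0.35 for Taok2, 0.40 for Tbc1d10b, 0.32 for Sez6l2 and 0.26 for Tlcd3b. The difference of Maz went from 0.28 to 0.10, and that of Doc2a from 0.35 to 0.24. Taok2 differed by 0.58 ± 0.16, with adjusted p values of 0.162 and 0.00909 in those fits. Gdpd3, a phosphodiesterase of lysophospholipids, had the largest difference of the interval, at 0.64 ± 0.15, with 9.80, 9.26 and 9.15 in +/+ and 9.95, 10.18 and 9.99 in dp/+ bulb. Its values in df/+ bulb were 5.44 and 5.69, or 7.0% of the +/+ level.

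Pagr1a, a subunit of a histone methyltransferase complex, differed by 0.62 ± 0.15, with 9.81, 10.17 and 9.75 against 10.76, 10.62 and 10.20. The lowest dp/+ value was just above the highest +/+ value. Asphd1 differed by 0.40 ± 0.09, Sez6l2, a membrane protein of neurons, by 0.50 ± 0.13, and Cdipt, which makes phosphatidylinositol, by 0.34 ± 0.09. Ppp4c, the catalytic subunit of protein phosphatase 4, measured 9.36, 9.42 and 9.40 against 9.83, 9.65 and 9.73, and its difference of 0.34 was small but clear of the spread of the +/+ mice. Hirip3, Slx1b, Tmem219, Doc2a, Mvp and Ypel3 lay between 0.25 and 0.35, and Tlcd3b at 0.41.

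Other interval genes showed little difference. Coro1a, an actin regulator of leukocytes, measured 9.20, 8.82 and 8.52 in +/+ bulb and 8.94, 8.61 and 8.86 in dp/+ bulb, a difference of −0.05 with a 95% interval from −0.40 to 0.31. Coro1a and Septin1 turned positive when +/+ mouse 1 was left out. Mylpf, a muscle myosin light chain and dim in the bulb, differed by −0.13, and the difference was −0.03 for Kif22 and −0.0027 for Septin1. Kctd13 measured 10.46, 10.04 and 9.95 against 10.50, 10.52 and 10.18, so that +/+ mouse 1 lay among the dp/+ mice. Its difference was 0.25, with a 95% interval from −0.05 to 0.56. For 8 of the 30 genes the 95% interval lay above 0 and held the proportional value of 0.58, for 7 it lay above 0 and below that value, and for 15 it included 0. The median interval difference in dp/+ mice was 0.34 for cortex, 0.33 for cerebellum and 0.32 for brain stem. For 0 of the 30 did the bulb differ from the mean of the other regions at an adjusted p under 0.05 by limma, beside 1.38% of all genes, and for 5 it did at an unadjusted p under 0.05, beside 18% of all genes.

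**Figure D1:**
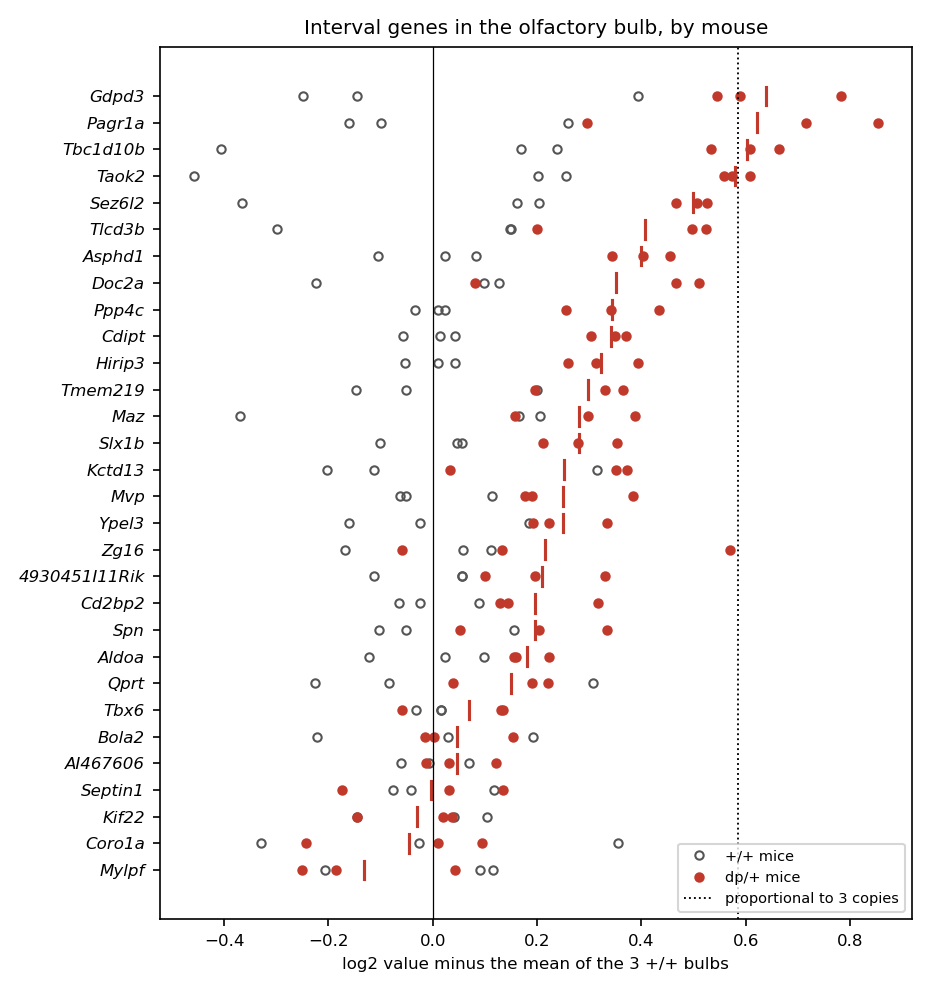
Log2 value of each interval gene in each +/+ bulb (open circles) and each dp/+ bulb (filled circles), relative to the mean of the 3 +/+ bulbs, with the dp/+ mean as a vertical bar and the proportional value of 0.58 as a dotted line. The genes run from a difference of 0.64 for Gdpd3 to −0.13 for Mylpf, and 3 of the 30 means lie past the dotted line.

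Outside the interval 12 genes passed the adjusted threshold, 5 higher and 7 lower in dp/+ bulb, which is 0.0602% of all genes tested. By mean bulb level 10 of these were brighter, of which 3 rose and 7 fell, and 2 were dim and rose. Of the 3, Olfr1274, had all its +/+ values under the dim limit and passed that limit through the dp/+ values. Of 5912 dim genes, 754 were higher and 92 lower at an unadjusted p under 0.05 by limma, beside 6.48% and 7.42% of all genes. After renewed quantile normalisation those counts were 442 and 368, and after cyclic loess 477 and 320. The number passing ran from 0 to 39 when 1 mouse was left out in turn: it was 5 when dp/+ mouse 3 was dropped, 36 for dp/+ mouse 1 and 2 for dp/+ mouse 2. Dropping +/+ mouse 1, 2 or 3 gave 2, 0 and 39. The number was 2 when the 6 bulbs were fitted without the df/+ mice. Dropping either df/+ mouse is the same fit, since a lone df/+ bulb adds nothing to the spread. Renewed quantile normalisation and cyclic loess each left 1 gene called. Each of the 12 genes kept its direction in every alternative that gave it a value. The calls held less often, from 17 of 18 settings for Olfr485 through 12 of 20 for Sst to 4 of 20 for Ten1. The fit without df/+ mice enters these settings more than once.

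Sst, which encodes the peptide somatostatin, made by inhibitory interneurons, fell the most. It measured 10.41, 10.26 and 9.73 in +/+ bulb and 8.90, 8.54 and 8.72 in dp/+ bulb. All 3 dp/+ values lay below all 3 +/+ values, and of the df/+ bulbs, at 9.75 and 10.43, the first lay within the +/+ range and the second just above its highest value. The difference of −1.41 ± 0.19 corresponds to 37.5% of the +/+ level (limma, adjusted p = 0.0314). It was −1.41 without dp/+ mouse 3 (adjusted p = 0.104) and −1.28 without +/+ mouse 1 (adjusted p = 0.0547), so neither smaller fit passed the threshold. In the other regions dp/+ and +/+ mice differed little in Sst: by −0.03 in cortex, 0.02 in cerebellum and −0.18 in brain stem. Its +/+ level was 10.13 in the bulb, 12.34 in cortex, 11.97 in brain stem and 8.10 in cerebellum. Among 15 markers of cortical projection neurons, measured as a check for other tissue, 5 were lower at an unadjusted p under 0.05 and none was higher, beside 7.42% of all genes lower. The count was 2 without dp/+ mouse 3. Tbr1, among the 5, is also listed with mitral and tufted cells of the bulb. In +/+ mice 13 of the 15 were higher in cortex than in the bulb, and 2 were highest in the bulb. The median of the 15 relative to +/+ was between −0.13 and −0.07 in the dp/+ bulbs and between −0.07 and 0.02 in the +/+ bulbs. The part of cortical tissue in the difference of Sst was not tested.

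The stretch before the Sst start is shown because its control by cyclic AMP is a textbook case. The 250 bases upstream of the gene start on the minus strand (RefSeq, GRCm38.p6, chr16:23890845-23891094) hold 1 copy of the full cyclic AMP response element, TGACGTCA, in capitals. The motif reads the same on both strands, and 508 of 32851 promoters, or 1.55%, hold it in a window of that length.
Sst promoter: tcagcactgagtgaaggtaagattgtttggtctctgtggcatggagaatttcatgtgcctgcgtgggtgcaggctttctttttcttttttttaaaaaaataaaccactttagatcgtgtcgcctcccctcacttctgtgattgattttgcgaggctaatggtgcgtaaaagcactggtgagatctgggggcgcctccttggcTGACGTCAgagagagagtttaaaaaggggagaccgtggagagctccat
The match begins 48 bases before the start. It describes the sequence and no binding was measured here.

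Of the brighter genes that rose, 2 were loci of the same microRNA. Mir680-1 measured 7.78, 7.62 and 8.06 in +/+ bulb and 8.78, 8.97 and 9.43 in dp/+ bulb, a difference of 1.24 ± 0.16 (adjusted p = 0.0314). Mir680-2 measured 8.72, 8.54 and 8.82 against 9.71, 9.49 and 10.21, a difference of 1.11 ± 0.15 (adjusted p = 0.0314). Leaving out dp/+ mouse 3 gave 1.05 and 0.91 (adjusted p = 0.0377 for both), and leaving out +/+ mouse 1 gave 1.22 and 1.12 (adjusted p = 0.0547 for both). The genotypes did not overlap in either. The df/+ bulbs were also above the +/+ bulbs, at 8.70 and 8.85 for Mir680-1 and 9.31 and 9.32 for Mir680-2. Differences in dp/+ cortex, cerebellum and brain stem were 0.02, 0.51 and 0.24 for Mir680-1 and −0.12, 0.74 and 0.16 for Mir680-2. In the test of bulb against other regions Mir680-1 passed (limma, adjusted p = 0.0161) and Mir680-2 did not (adjusted p = 0.0743). Mir680-3 measured 8.60, 8.43 and 8.61 against 9.03, 9.03 and 9.09, and its difference of 0.50 ± 0.10 missed the threshold (adjusted p = 0.0812).

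The 3 loci are shown because their precursors share the mature sequence, so that probes for one can read RNA of another. RefSeq (GRCm38.p6) places them on the plus strand of chr6:129691535-129691643 and of chrX:144297790-144297899, and on the minus strand of chr12:35194811-35194897. In the mature sequence the seed, bases 2 to 8 that pair with target messengers, is in capitals, and in the hairpins the capitals mark the mature part.
miR-680: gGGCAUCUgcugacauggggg
Mir680-1 hairpin: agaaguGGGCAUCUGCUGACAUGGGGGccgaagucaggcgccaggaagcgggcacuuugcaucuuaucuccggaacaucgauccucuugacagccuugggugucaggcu
Mir680-2 hairpin: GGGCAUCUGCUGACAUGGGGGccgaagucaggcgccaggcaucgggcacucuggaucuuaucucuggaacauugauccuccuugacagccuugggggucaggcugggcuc
Mir680-3 hairpin: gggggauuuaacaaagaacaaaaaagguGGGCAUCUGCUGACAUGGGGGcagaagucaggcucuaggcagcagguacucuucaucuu
All 3 hold the same 21 bases. These arrays label total RNA, and a value for a microRNA locus can come from longer transcripts of the locus as well as from the hairpin. Over 291 microRNA genes, 48 were higher and 6 lower at an unadjusted p under 0.05, beside 6.48% and 7.42% of all genes, with a median of 0.10. After renewed quantile normalisation 42 were higher and 13 lower, with a median of 0.05. Of these genes 125 are brighter than the dim limit.

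The remaining called genes have separate functions. Mrpl42, a protein of the mitochondrial ribosome, measured 7.58, 7.34 and 7.49 in +/+ bulb and 6.81, 6.73 and 6.66 in dp/+ bulb. Its difference of −0.74 ± 0.10 was several times the spread within either genotype (adjusted p = 0.0314). Ten1, a subunit of the complex that protects and replicates telomere ends, measured 9.15, 9.02 and 8.86 against 8.31, 8.43 and 8.31 and fell by 0.65 (adjusted p = 0.0496). The gene 1110008P14Rik measured 9.82, 9.49 and 9.18 against 8.45, 8.70 and 8.35 and fell by 1.00 (adjusted p = 0.0496). Both df/+ values of Ten1, 8.66 and 8.51, lay between the genotypes. Leaving out dp/+ mouse 3 gave adjusted p values by limma of 0.104 for Mrpl42, 0.1355 for Ten1 and 0.145 for 1110008P14Rik. Without +/+ mouse 1 they were 0.0547, 0.109 and 0.0755, so none of these genes passed in either smaller fit.

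**Figure D2:**
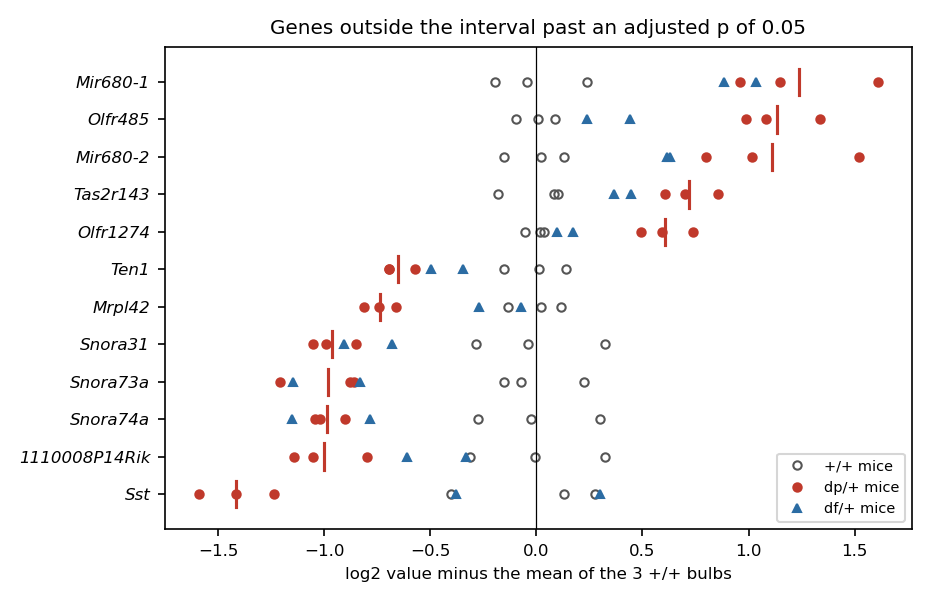
Log2 value of the 12 genes outside the interval with an adjusted p under 0.05, in each bulb, relative to the mean of the 3 +/+ bulbs: open circles +/+, filled circles dp/+, triangles df/+, vertical bars the dp/+ means. The dp/+ mice are apart from the +/+ mice in each gene, and the df/+ mice lie close to the dp/+ mice for the 3 small nucleolar RNAs and close to the +/+ mice for Sst.

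Small nucleolar RNAs, which mostly guide chemical modification of ribosomal and spliceosomal RNA, had the lowest median difference of all the gene lists measured. Of 54 measured, 3 fell past the adjusted threshold, 32 were lower and 2 higher at an unadjusted p under 0.05, and for 24 all dp/+ bulbs lay below all +/+ bulbs, beside 0.0351%, 7.42% and 8.82% of all genes lower by those rules. Their median difference was −0.56. Snora73a measured 10.60, 10.30 and 10.22 in +/+ bulb and 9.17, 9.50 and 9.52 in dp/+ bulb (difference −0.98 ± 0.13, adjusted p = 0.0314). Snora74a measured 10.30, 9.97 and 9.72 against 9.09, 8.96 and 8.98 (−0.99 ± 0.14, adjusted p = 0.0361). Snora31 measured 8.83, 8.46 and 8.22 against 7.51, 7.45 and 7.65 (−0.97 ± 0.14, adjusted p = 0.0361). The groups were apart in all 3, although the +/+ bulbs were themselves widely spread. In cortex, cerebellum and brain stem the differences were −0.16, −0.47 and −0.34 for Snora73a and 0.006, −0.42 and −0.58 for Snora74a. For Snora31 they were −0.66, −0.81 and −0.84. None of the 3 passed the test of bulb against other regions (limma, adjusted p = 0.101, 0.163 and 0.703). Without dp/+ mouse 3 the adjusted p values in the bulb were 0.079, 0.1355 and 0.104, and without +/+ mouse 1 all were 0.0547.

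The median over the 54 genes, relative to the +/+ mean, was 0.32, −0.04 and −0.28 in the +/+ bulbs and −0.54, −0.61 and −0.45 in the dp/+ bulbs. The df/+ bulbs, at −0.49 and −0.49, were at the level of the dp/+ bulbs. The 2 comparisons share the same +/+ bulbs. Without +/+ mouse 1 the median difference was −0.31, and 25 genes were lower at an unadjusted p under 0.05. Without dp/+ mouse 3 the median was −0.60, with 32 genes lower. The 2 arrays of +/+ mouse 1 differed by a median of −0.02 over these genes. Many small nucleolar RNAs lie in introns of host genes and have near-identical copies, so single members are uncertain.

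Genes of odorant, vomeronasal and trace amine receptors, most of which are not expressed by cells of the bulb, read higher in dp/+ bulb. Of 1209 measured, 1148 are dim. At an unadjusted p under 0.05, 448 were higher and 1 lower, and for 471 all dp/+ bulbs were above all +/+ bulbs, beside 6.48% and 8.87% of all genes higher by those rules. Olfr485 measured 5.69, 5.61 and 5.50 in +/+ bulb and 6.59, 6.68 and 6.94 in dp/+ bulb. Its difference of 1.14 ± 0.11 had the smallest p of all genes (limma, adjusted p = 0.00466). In dp/+ mice it also differed by 0.78 in cerebellum, and by 0.14 in cortex and 0.06 in brain stem. Olfr1274, with +/+ values of 6.41, 6.50 and 6.49, rose by 0.61 (adjusted p = 0.0496), and Tas2r143, a bitter taste receptor outside that list and dim, by 0.72 (adjusted p = 0.0425). These values lie near the floor of the arrays.

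The shift was uneven between mice. The median over the receptor genes, relative to the +/+ mean, was 0.10, 0.12 and 0.40 in the dp/+ bulbs, 0.05, 0.01 and −0.06 in the +/+ bulbs and 0.03 in both df/+ bulbs. Without dp/+ mouse 3 the median difference went from 0.20 to 0.11, and the count of receptor genes higher at an unadjusted p under 0.05 from 448 to 249. When the arrays were quantile-normalised again the median was 0.11, with 307 higher and 15 lower. Level moved with this result. With all genes ranked by bulb level into 10 equal groups, the median difference was 0.09 in group 1, the dimmest, and −0.05 in group 6. Over all dim genes the median was 0.07 as deposited but −0.01 after renewed quantile normalisation and −0.002 after cyclic loess between arrays, so their direction depends on the scaling.

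**Figure D3:**
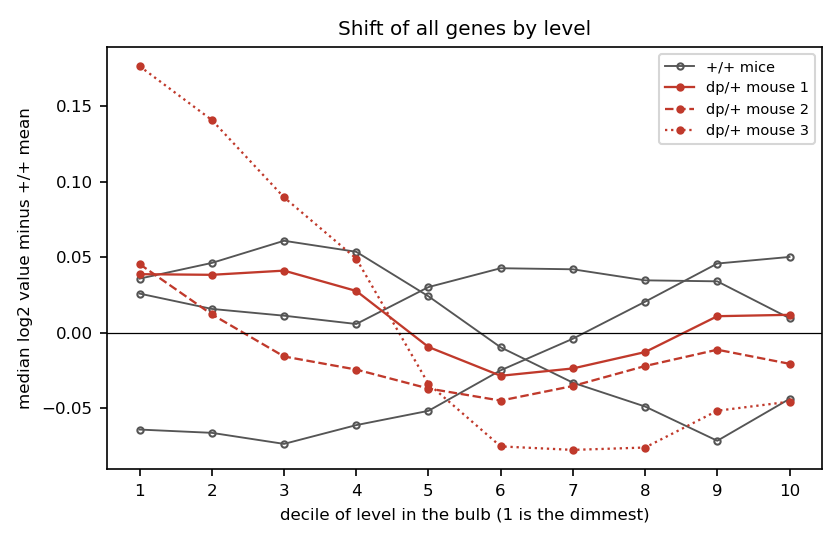
Median of log2 value minus the +/+ mean over each of 10 equal groups of genes ranked by bulb level, for each +/+ bulb (grey, open circles) and each dp/+ bulb (red). In the dimmest group dp/+ mouse 3 is at 0.18, while dp/+ mice 1 and 2 are at 0.04 and 0.05, near the highest +/+ bulb at 0.04.

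None of the genes listed here as markers of the bulb's own neurons passed the adjusted threshold. Sst, which did, was listed with cortical interneurons and neuropeptides. Of 17 genes of granule cells and other bulb interneurons, 0 passed it by limma and 0 had an unadjusted p under 0.05, with a median difference of 0.04. Gad1, which makes GABA, measured 12.96, 12.86 and 12.99 against 13.10, 13.15 and 12.99. Of 10 mitral and tufted cell genes 3 were lower at an unadjusted p under 0.05, beside 7.42% of all genes. Among the 3 were Doc2g at −0.37 and Tbr1, also listed with cortical projection neurons, at −0.35. Of the 10 differences 9 were negative, with a median of −0.17. The median was −0.08 without dp/+ mouse 3, and 1 gene was lower without +/+ mouse 1. Of 6 periglomerular genes 1 was lower by that rule, Calb1, a calcium-binding protein, at −0.48, and the median was −0.16, or −0.04 without dp/+ mouse 3. Th, the enzyme of dopamine synthesis in these cells, measured 12.56, 12.44 and 12.61 against 12.30, 12.47 and 12.25, and the genotypes overlapped. Of 9 genes of migrating neuroblasts and dividing cells 7 had negative differences and 1, Cd24a (−0.35), was lower at an unadjusted p under 0.05, while Dcx differed by 0.20 (adjusted p = 0.50). The count was 3 without +/+ mouse 1.

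Messengers of olfactory sensory neurons, which reach the bulb in axons, were lower in part. Of 12 measured, 4 were lower and none was higher at an unadjusted p under 0.05, beside 7.42% of all genes lower, 11 differences were negative and the median was −0.28. In +/+ mice 7 of the 12 were highest in the bulb, and 3 were higher in cortex than in the bulb. Stoml3, a stomatin-like protein of sensory cilia and axons, measured 12.02, 11.54 and 11.65 in +/+ bulb and 11.01, 11.24 and 10.91 in dp/+ bulb. Gng13, the G protein subunit of chemosensory transduction, measured 10.80, 10.09 and 9.92 against 9.47, 9.57 and 9.49. For both, dp/+ lay wholly below +/+, but neither passed the adjusted threshold in the bulbs alone (differences −0.68 and −0.76, adjusted p 0.0812 and 0.133). The +/+ level of Gng13 was 10.27 in the bulb and 10.66 in cerebellum. S100a5, a calcium-binding protein of these neurons, differed by −0.57 with overlapping values, and without +/+ mouse 1 the count went from 4 to 2. Values of the df/+ bulbs were as low, at 10.82 and 11.05 for Stoml3. Markers of nasal mucosa differed more between single bulbs: Cyp2g1 measured 7.93, 9.05 and 7.20 against 7.64, 7.58 and 7.36, and 6.12 and 5.66 in df/+ bulb. Of 8 such genes 1, Cbr2, was lower in dp/+ at an unadjusted p under 0.05. The part of nasal tissue in these values was not tested.

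Myelin genes had negative differences for all 13 measured, and for 11 of 13 after renewed quantile normalisation. At an unadjusted p under 0.05, 8 of them were lower and none was higher, beside 7.42% of all genes lower, and the median was −0.27. By mouse the median was −0.18, −0.31 and −0.32 in dp/+ bulbs and −0.10 and −0.02 in df/+ bulbs. Mobp, a structural protein of myelin, measured 10.73, 10.75 and 10.27 against 10.04, 9.84 and 9.59. Ermn, a cytoskeletal protein of oligodendrocytes, differed by −0.49, Mal by −0.36 and Mbp, myelin basic protein, by −0.27. None passed the adjusted threshold in the bulbs alone, and 2 did in the fit of all 31 samples, beside 1.06% of all genes lower. Without dp/+ mouse 3 the count of 8 became 5, and without +/+ mouse 1 it was 8. None of the 5 oligodendrocyte precursor genes had an unadjusted p under 0.05. Of 12 microglia genes 5 were lower by that rule, led by the complement subunits C1qb (−0.66 ± 0.13; 10.95, 10.64 and 10.36 against values from 9.93 to 10.05) and C1qa (−0.42) and the purine receptor P2ry12 (−0.38). By mouse the microglia median was −0.18, −0.21 and −0.13 in dp/+ bulbs and −0.12 and −0.09 in df/+ bulbs. Of 12 astrocyte genes 0 passed the adjusted threshold by limma and 0 the unadjusted one. Of 10 endothelial genes 2 were higher at an unadjusted p under 0.05, Cldn5 (0.40) and Tek (0.34), beside 6.48% of all genes, and the median was 0.11. Of 10 genes of meninges and fibroblasts 3 were higher by that rule, the collagens Col1a1 (0.27), Col1a2 (0.25) and Col3a1 (0.24), but the other 7 had negative differences and the median was −0.04. None of these passed the adjusted threshold. When +/+ mouse 1 was left out, 7 of those 10 were positive and the median was 0.08.

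**Figure D4:**
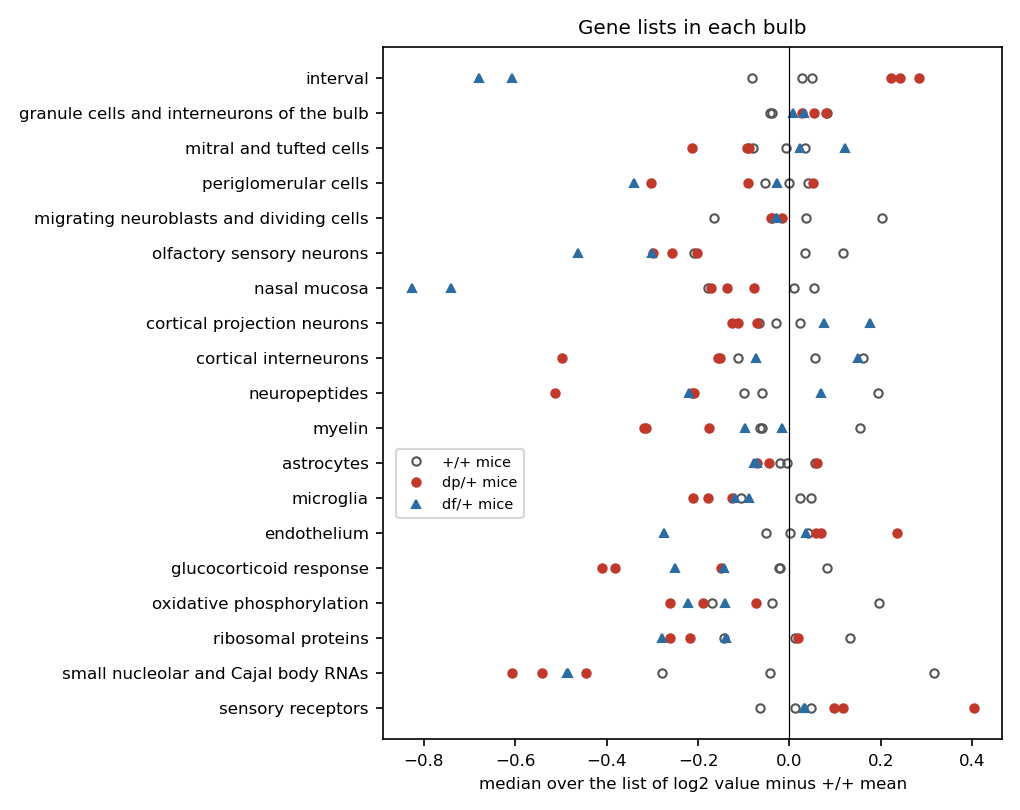
Median over each gene list of log2 value minus the +/+ mean, in each bulb: open circles +/+, filled circles dp/+, triangles df/+. The interval is at 0.22 to 0.28 in dp/+ mice, the small nucleolar RNAs are at −0.61 to −0.45, and the granule cell list stays within 0.10 of 0 in all 8 bulbs.

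Genes of hormone and stress responses were lower in dp/+ bulb in part, and none passed the adjusted threshold. Of 11 genes induced by glucocorticoids 6 were lower and none higher at an unadjusted p under 0.05, beside 7.42% of all genes lower, with a median of −0.25. By mouse the median was −0.15, −0.38 and −0.41 in dp/+ bulbs and −0.14 and −0.25 in df/+ bulbs. Tsc22d3, which mediates anti-inflammatory actions of glucocorticoids, measured 8.77, 8.64 and 8.68 against 8.23, 8.15 and 7.84. Sgk1, a kinase induced by the hormone, measured 9.57, 9.63 and 9.57 against 9.44, 8.99 and 8.52. The dp/+ mice were below the +/+ mice in both, and they varied more among themselves in Sgk1. Without dp/+ mouse 3 the count was 5, and without +/+ mouse 1 it was also 5. Of 12 heat shock genes 5 were lower, with Dnajb1, a co-chaperone of HSP70, at −0.59 and Hspe1 at −0.35. Of 15 clock genes 4 were lower, with the repressors Bhlhe41 at −0.42 and Ciart at −0.76. The heat shock count became 3 without dp/+ mouse 3 and 3 without +/+ mouse 1, and the clock count became 2 in both cases. Of 17 immediate early genes 0 passed the unadjusted or the adjusted threshold by limma, and the median was −0.21, with 4 of 17 differences positive. The median was −0.05 without dp/+ mouse 3, with 7 of 17 positive.

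Housekeeping groups differed by small amounts. Of 75 subunits of oxidative phosphorylation 17 were lower and none higher at an unadjusted p under 0.05, beside 7.42% of all genes lower, with a median of −0.17, and Ndufb8 (−0.65) and Ndufa7 (−0.59), both of complex I, were among the lowest. The medians by mouse were −0.19, −0.26 and −0.07 in dp/+ bulbs and 0.20, −0.04 and −0.17 in +/+ bulbs, so the genotypes overlapped. In df/+ bulbs they were −0.22 and −0.14. Without +/+ mouse 1 the count was 7, and without dp/+ mouse 3 it was 24. Of 60 ribosomal protein genes 11 were lower and 1 higher, beside 7.42% and 6.48% of all genes, with a median of −0.16 and overlapping mice. By mouse the median was −0.22, −0.26 and 0.02 in dp/+ bulbs and −0.28 and −0.14 in df/+ bulbs. The lower count was 25 without dp/+ mouse 3 and 6 without +/+ mouse 1. Of 14 glycolytic genes 3 were lower and 1 higher, beside the same shares of all genes: Pgk1 (−0.35), Pfkl (−0.28) and Pgam1 (−0.28) against Pfkp (0.22). Aldoa, the glycolytic enzyme within the duplicated segment, differed by 0.18 with 13.26, 13.11 and 13.34 against 13.40, 13.39 and 13.46.

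Among the lists of neuronal signalling genes the neuropeptides had the lowest median. Of 14 neuropeptide genes 5 were lower and none higher at an unadjusted p under 0.05, beside 7.42% of all genes lower, and the median was −0.35. The median was −0.23 without +/+ mouse 1, with 4 lower, and −0.37 without dp/+ mouse 3, with 6 lower. Beside Sst, Trh, the thyrotropin-releasing hormone, measured 10.97, 10.63 and 10.71 against 10.35, 10.30 and 10.34, a difference of −0.44 (adjusted p = 0.133). Grp differed by −0.33 and Vip by −0.46. Mapk3 of the segment acts in the ERK kinase pathway but was not among the measured interval genes. Of 11 feedback targets of ERK, Dusp6 (−0.41) and Dusp4 (−0.43) were lower at an unadjusted p under 0.05. The median of the 11 was −0.04, or 0.01 with arrays centred on their medians. Leaving out +/+ mouse 1 gave a median of −0.15, with 4 lower. The 5 measured partners of Kctd13, including Cul3 and Rbx1, had 0 with an adjusted or an unadjusted p under 0.05 by limma. Of 21 GABA and glycine receptor genes 3 were lower and 1 higher, with Glra2 at −0.39 and Glra3 at −0.35, of 22 glutamate receptor genes 1 was higher (Grm5, 0.23), and of 87 potassium channel genes 5 were higher and 5 lower. All 11 genes measured for synaptic adhesion and scaffolds had positive differences, with a median of 0.07 and 1, Nrxn3 (0.29), at an unadjusted p under 0.05. Without +/+ mouse 1 the median of that list turned to −0.12, with 8 of 11 differences negative. The shares in the glutamate receptor and potassium channel lists are no higher than the 6.48% and 7.42% of all genes.

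A direct test asked which genes differed in dp/+ bulb from the mean dp/+ difference in the other 3 regions. With mouse as a random block, 275 genes passed, or 1.38%, 150 of them with the higher difference in the bulb (0.752%) and 125 with the lower (0.627%). Sst was first of those lower, at −1.36 ± 0.17 relative to the other regions (adjusted p = 0.000198), and at −1.33 without dp/+ mouse 3 and −1.20 without +/+ mouse 1. Tafa1, which encodes a secreted protein of neurons, measured 8.52, 9.14 and 8.60 in +/+ bulb and 8.06, 7.21 and 7.29 in dp/+ bulb, with differences of 0.05 in cortex, −0.08 in cerebellum and −0.13 in brain stem. Relative to the other regions it differed by −1.18 (limma, adjusted p = 0.00306). The df/+ bulbs measured 8.67 and 9.45 for Tafa1. Its +/+ level was 8.75 in the bulb, 11.04 in cortex, 10.25 in brain stem and 7.26 in cerebellum. The part of other tissue in the Tafa1 difference was not tested. Camk2n2, an inhibitor of the calcium kinase CaMKII, measured 10.32, 10.29 and 10.28 against 9.81, 9.84 and 9.66, and 10.08 and 10.03 in df/+ bulb. Its +/+ bulbs were within 0.04 of each other, and its difference relative to the other regions was −0.61 (adjusted p = 0.00211). Mobp of myelin differed by −0.72 (limma, adjusted p = 0.00309), Gng13 by −0.92 (adjusted p = 0.0168) and Stoml3 by −0.83 (adjusted p = 0.0422). The +/+ level of Mobp was 10.58 in the bulb, 11.08 in cortex, 10.82 in cerebellum and 11.83 in brain stem, and the df/+ bulbs measured 10.14 and 10.13. Kdm5a, a histone demethylase, was higher in dp/+ bulb, with 9.73, 9.62 and 9.64 against 8.97, 9.42 and 9.11. The df/+ bulbs, at 9.58 and 9.55, were also above the +/+ bulbs. For Kdm5a the dp/+ differences elsewhere ran from −0.28 to −0.08. Relative to these it differed by 0.68 (adjusted p = 0.00131). Metap1d, a mitochondrial aminopeptidase, differed by 0.55 (adjusted p = 0.00211). With 1 value per mouse, in which each mouse counts once, 14 genes passed, and 12 of them were among the 275. Dropping +/+ mouse 1, 2 or 3 gave 18, 17 and 601 genes, and dropping dp/+ mouse 1, 2 or 3 gave 208, 18 and 253.

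**Figure D5:**
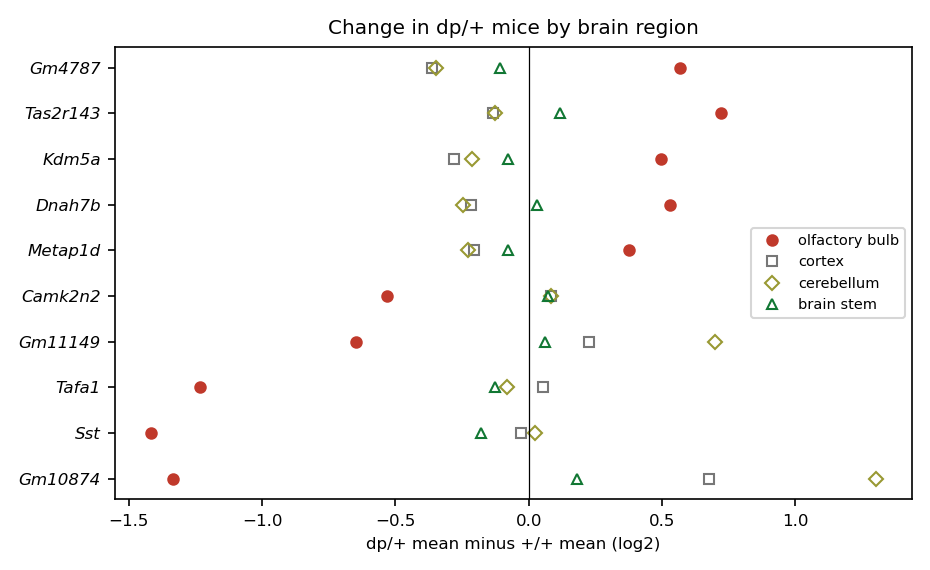
Difference between dp/+ and +/+ means (log2) in each of the 4 regions for the 5 genes in each direction with the smallest p in the test of the bulb against the other regions. Filled circles are the bulb and open symbols the other regions, errors are not drawn, and Sst lies at −1.41 in the bulb against −0.18 to 0.02 elsewhere.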

How the data were processed

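The authors deposited log2 expression values of Affymetrix gene-level arrays. Affymetrix Expression Console and RMA are the tools listed, per the submitters' processing notes, and versions are not given in the sources used here. Base 2 was read from the range of the values, since no label states it. RMA subtracts background, equalises arrays by quantiles and summarises probes, which compresses differences of dim genes. Of 35556 probe sets, 21789 have 1 gene symbol, 1621 several and 12146 no listed gene, and 21698 identifiers of the first kind matched RefSeq's gene table (GRCm38.p6). A gene with several probe sets was represented by the one brightest on average, which left 19938 genes. The bulb of +/+ mouse 1 has 2 arrays, which were averaged. That of +/+ mouse 3 has a lone array, labelled technical 2.

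The labels give no hybridisation batch, and the number of arrays limits precision. limma 3.58.1 in R 4.3.3 (lmFit, eBayes) fitted 3 genotype groups to the 8 bulbs, without a filter, and p-values were adjusted by Benjamini-Hochberg over all genes. Errors are standard errors of that fit. The test between regions used all 31 samples with a random effect of mouse (duplicateCorrelation, at 0.12). The scripts were tested on simulated data. Members and gene lists were chosen with earlier results of these data known, and a list's counts and median are a description, to be read beside the shares of all genes. Genes to name were chosen by rule, and some interval genes and list members appear only in figures or counts. The rule took every interval gene, and past the threshold up to 15 brighter genes in each direction and up to 8 dim genes. It also took up to 5 in each direction for the regions, and up to 4 of each list by smallest p, with any past the threshold. Alternatives were the first or last array of a sample, every probe set, brighter genes, genes above the median level, quantile normalisation again, arrays centred on medians, cyclic loess, a trended robust prior, a replicate block, the 6 bulbs alone, all 31 samples, adjustment outside the interval, no mouse block, 1 value per mouse, and each bulb mouse left out. List counts and medians without +/+ mouse 1 or dp/+ mouse 3 and under other scalings were added after seeing the data.

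Same-numbered +/+ and dp/+ bulbs had deviations that correlated at −0.07, 0.08 and −0.29, and bulbs with different numbers at −0.28 to 0.30. Deviations from the mean of so few mice cannot show whether particular mice are linked. The main fits did not pair the mice by number.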

Additional observations from a re-analysis of the deposited data

Results flagged for a closer look

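The results here were marked because the dp/+ difference in the bulb departed from the mean difference in the cortex, cerebellum and brain stem at an adjusted p under 0.05 by limma, with mouse as a random block. All values are the bulb difference minus that mean, on the log2 scale. Genes lower in the bulb by that measure were Sst (−1.36), Gm10874 (−2.08), Camk2n2 (−0.61), Tafa1 (−1.18) and Gm11149 (−0.98). From the lists came the myelin genes Mobp (−0.72), Mbp (−0.36) and Ermn (−0.63), the sensory neuron genes Gng13 (−0.92), S100a5 (−0.74) and Stoml3 (−0.83), the complement gene C1qb (−0.58), and Ndufa7 (−0.57), Pgam1 (−0.37) and Kcnip3 (−0.40). Of the genes called in the bulbs alone, 1110008P14Rik (−0.86) and Ten1 (−0.54) were lower as well.

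Genes higher in the bulb by that measure were Tas2r143 (0.77), Kdm5a (0.68), Dnah7b (0.67), Metap1d (0.55), Gm4787 (0.84), Mir680-1 (0.99), Olfr620 (0.54) and Olfr485 (0.82). Tas2r143, Dnah7b, Olfr620 and Olfr485 are dim in the bulb, and Olfr485 also differed by 0.78 in dp/+ cerebellum. Gm10874 is the gene in which the bulb and another region moved furthest apart: the difference was −1.33 in the bulb and 1.30 in the cerebellum.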

How the results depend on the processing

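The count of genes called outside the interval was 12, and it was 1 with every probe set as its own feature, 1 after renewed quantile normalisation and 1 after cyclic loess, 5 among genes above the median level, 2 in the 6 bulbs alone, 27 with a trended robust prior, and 444 in the fit of all 31 samples (233 higher and 211 lower). Leaving out 1 mouse gave 0 to 39. With the replicate number as a block 10 were called, 5 of them among the 12. Interval genes called numbered 0 in the bulbs, 8 in the fit of all samples and 15 at the unadjusted threshold, and 0 whichever mouse was left out. The median interval difference of 0.25 was 0.32 among genes above the median level and 0.31 after renewed quantile normalisation, and 0.22 to 0.27 with 1 mouse left out. The count of 275 for the bulb against other regions was 179 with the last array of each sample, 513 among brighter genes, 499 among genes above the median level, 519 after quantile normalisation, 494 after cyclic loess, 85 without the mouse block, 14 with 1 value per mouse, and 17 to 601 with 1 bulb mouse left out. The replicate block gave 259. The causes of these moves were not tested, apart from fewer genes or samples where the setting says so. With 3 mice a genotype, of 52 single-gene results only Bola2, Coro1a, Kif22 and Septin1 changed direction in some setting, and none of these was called.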
